A study of Homo sapiens with 2 samples.

Results

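Peaks of RFX6 outside protein-coding genes were examined in hepatocellular carcinoma (HCC) cells. For this, 476 intergenic intervals were taken from the deposited peak list of HA-RFX6-overexpressing MHCC-97H cells. They were 9.53% (95% Wilson interval 8.75% to 10.4%) of the 4994 distinct intervals on chromosomes 1 to 22. An interval was counted as intergenic when its midpoint was outside every protein-coding gene and over 1 kb from the end of any annotated gene, coding or non-coding (RefSeq, GRCh38). MHCC-97H is a human HCC cell line, and here it overexpressed RFX6 with an HA tag. An anti-HA antibody is given for the ChIP assays of the study, though not named for the sequenced library, and endogenous RFX6 carries no such tag. The series holds 2 libraries of these tumour cells, namely 1 HA-RFX6 ChIP and 1 input, and the peak list was deposited with the ChIP library. Treatment or time labels were not given. Neither replicates nor read depth were given, so no test across samples was possible, and every comparison between classes below is a description. Wilson intervals cover the counting of intervals only.

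RFX6 belongs to the regulatory factor X family, whose winged-helix domain binds the X-box, a palindrome with GTTGCC-type arms. It is best known in the development of the endocrine pancreas. Sequence away from genes holds enhancers, silencers and insulators. Enhancers act on promoters at a distance, often carry several factor-bound sites side by side, and need not act on the closest gene.

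The labels name GRCh37 as the build, whereas the coordinates fitted GRCh38. Midpoints of 3034 of the 4994 intervals (60.8%) lay within 1 kb of a protein-coding gene end in GRCh38, a region that makes up 2.57% of the bases considered. The remaining 1371 intervals inside coding genes and 113 at other gene ends complete the list. The score is a whole number with no stated meaning and served only to rank intervals within the list.

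Sequence was available for part of 3 intergenic intervals, because a RefSeq transcript start lies inside the long non-coding gene that holds each of them. They are shown since they are the only 3 of 470 intergenic intervals (0.638%, 0.217% to 1.86%) within 1 kb of a listed transcript start. The stretch shared by interval and RefSeq window is printed 5′ to 3′ on the strand of the transcript (GRCh38.p14), and capitals mark matches to the GC box (CCGCCC) or the CCAAT box (CCAAT) on either strand.
LOC105373289, chr1:227788281-227788569, plus strand: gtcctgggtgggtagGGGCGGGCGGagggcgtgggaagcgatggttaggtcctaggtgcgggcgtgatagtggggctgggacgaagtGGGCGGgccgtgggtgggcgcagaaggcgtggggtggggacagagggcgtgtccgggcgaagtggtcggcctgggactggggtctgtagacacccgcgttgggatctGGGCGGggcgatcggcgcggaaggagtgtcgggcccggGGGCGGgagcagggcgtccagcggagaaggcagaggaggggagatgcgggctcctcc
LOC105371912, chr17:78341905-78342116, plus strand: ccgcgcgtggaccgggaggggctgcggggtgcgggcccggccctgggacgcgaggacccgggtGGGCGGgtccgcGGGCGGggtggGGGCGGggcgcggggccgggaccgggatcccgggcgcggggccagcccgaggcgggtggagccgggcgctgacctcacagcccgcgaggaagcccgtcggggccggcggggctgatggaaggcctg
LOC105369764, chr12:49967117-49967416, minus strand: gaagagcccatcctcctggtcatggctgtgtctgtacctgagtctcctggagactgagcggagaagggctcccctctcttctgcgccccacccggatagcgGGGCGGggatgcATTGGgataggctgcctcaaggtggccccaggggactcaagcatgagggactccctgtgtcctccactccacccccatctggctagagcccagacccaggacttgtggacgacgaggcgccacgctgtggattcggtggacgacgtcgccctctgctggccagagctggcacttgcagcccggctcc

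The interval in LOC105373289 (chr1:227788281-227788738) had a score of 84, and its midpoint was 11 bp from the transcript start. The interval in LOC105371912 (chr17:78341905-78342193) had a score of 37, with its midpoint 18 bp from the start. In LOC105369764, the interval (chr12:49967037-49967521) had a score of 29 and was centred 113 bp from the start. GC content was 72.3%, 84.0% and 65.0% in this order, compared with a median of 58.7% (quartiles 47% and 68%) in 33725 RefSeq promoter windows of 300 bases. The GC box occurred 5, 3 and 1 times, and it is present in 45.0% of all windows. Matches that overlap are counted separately. The X-box arm GTTGCC was not found in these stretches, and 12.2% of all windows hold it. The CCAAT box, found in LOC105369764 alone, occurs in 34.4% of windows. The AP-1 site TGANTCA, the E-box CACGTG, the ETS site CCGGAAG and TATAAA had no match, against 7.67%, 7.18%, 10.3% and 11.6% of windows. These letters do not show binding. Transcript starts of chromosome 8, with its 6 intergenic intervals, were not used here. The sequence of the other intergenic intervals was not used here.

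Intergenic intervals were sparse for the sequence that could hold them. Positions that meet the same rule made up 51.4% of the bases considered, 1390 Mb in total, but held 9.53% of the intervals. This gave 3.42 intervals per 10 Mb, compared with 437 per 10 Mb within 1 kb of coding gene ends, 11.7 inside coding genes and 15.0 at other gene ends. Bases from the first to the last gene of a chromosome were considered, without gene-free stretches of over 2 Mb, which hold 3 of the 476 intervals.

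Most intergenic intervals were close to a gene even so. The median distance from the midpoint to the nearest annotated gene end was 5305 bp (quartiles 2610 and 9649 bp), where the rule sets the lower limit. The nearest coding gene end was 9478 bp away in the median (quartiles 4368 and 23121 bp). Density fell with each step of distance, from 10.7 intervals per 10 Mb at 1 to 2 kb (89 intervals) to 7.06 at 2 to 5 kb (136), 6.28 at 5 to 10 kb (136) and 2.75 at 10 to 20 kb (71). Beyond that, it was 0.980 at 20 to 50 kb (33 intervals) and 0.363 over 50 kb (11 intervals, among them the 3 in gene-free stretches). As the bases of those stretches are not in the sequence counted, the value over 50 kb is too high. Scores did not follow this order. The median was 27 in each of the first 3 distance steps, 29 at 10 to 20 kb, 27 at 20 to 50 kb and 25 beyond. With regard to surroundings, intergenic intervals had a median of 14 coding genes within 500 kb to either side (quartiles 8 and 24). The intergenic sequence itself, read at every 10000th base, had a median of 3 (quartiles 1 and 7), and all intervals of the list had a median of 14.

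**Figure D1:**
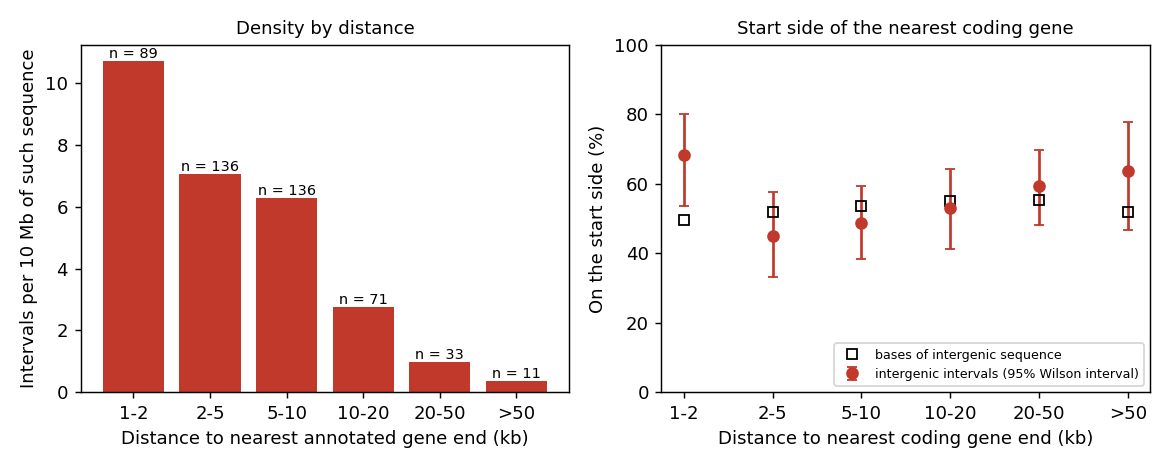
Left, bars give intergenic intervals per 10 Mb of intergenic sequence by distance in kb to the nearest annotated gene end, with the number of intervals above each bar. Right, points give the percent of intergenic intervals on the start side of their nearest coding gene with 95% Wilson intervals, and squares the percent of intergenic bases on that side. Density falls from 10.7 to 0.363 per 10 Mb, and the Wilson interval lies above the square at 1 to 2 kb alone. The last bar on the left is too high, as it includes intervals in gene-free stretches whose bases are not counted.

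Gene starts and far ends were then separated for the 363 intervals whose nearest coding gene had a known strand. Of these, 199 (54.8%, 49.7% to 59.9%) lay on the start side, and 52.7% of intergenic bases were on that side as well. At 1 to 2 kb from the gene end, 30 of 44 (68.2%, 53.4% to 80.0%) were on the start side, whereas 49.5% of the bases were. Thus just outside the 1 kb limit, there were 32.4 intervals per 10 Mb beside starts and 14.8 beside far ends. At 2 to 5 kb, the share was 45% (27 of 60, 33.1% to 57.5%), and in this and all farther steps the Wilson interval included the share of bases. An interval within 1 kb of a start of that same nearest gene was also listed for 122 of the 363 (33.6%, 28.9% to 38.6%). With each nearest gene counted once, this held for 94 of 298 genes (31.5%, 26.5% to 37.0%), compared with 2561 of 15100 coding genes of known strand (17.0%). This difference was not tested.

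Annotated genes nearest to the intergenic intervals were coding in 252 cases (52.9%), long non-coding in 132 (27.7%), transcribed pseudogenes in 18 (3.78%) and other pseudogenes in 70 (14.7%). The share of intergenic bases nearest to each type was not worked out, so these shares have no background. A non-coding gene held the midpoint of 77 intervals (16.2%, 13.1% to 19.8%), compared with 25.3% of intergenic bases. Of these 77 intervals, 64 were in long non-coding RNA genes, 9 in transcribed pseudogenes and 4 in other pseudogenes, and some shared a gene. The 77 intervals had a median score of 26 (quartiles 19 and 36), and the 399 in no gene had 27 (21 and 35).

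Scores of the intergenic class were lower than those at coding gene ends. Its scores ranged from 13 to 94 with a median of 27 (quartiles 21 and 35), compared with 32 (25 and 43) at coding gene ends, 28 (22 and 37) inside coding genes and 27 (22 and 37) at other gene ends. A score of at least 30 was reached by 193 (40.5%, 36.2% to 45.0%), against 52.3% of all intervals, and a score of at least 50 by 34 (7.14%, 5.16% to 9.82%), against 13.5%. Scores under 20 were found in 99 (20.8%, 17.4% to 24.7%), against 15.4%. For an interval on several lines, the highest score was kept. Lines differed in score for 5.88% of intergenic intervals and 11.9% of those at coding gene ends, so this choice raised the latter more often. Lowest scores were not compared between classes. Intergenic intervals were also narrower than those at coding gene ends. Their median width was 252 bp (quartiles 213 and 329), against 282 bp (226 and 402) at coding gene ends. Inside coding genes, it was 260 bp (216 and 360). Of the intergenic intervals, 63 (13.2%) had exactly 200 bp, the narrowest width, against 8.85% of the other intervals. Scores and widths went together weakly (Spearman's rho of 0.23 across the 476 intervals, which share 1 library). Among intervals of 200 to 249 bp, the median score was 27 in the intergenic class, at coding gene ends and inside coding genes alike. At 250 to 299 bp, it was 27 in the intergenic class and 32 at coding gene ends, at 300 to 399 bp it was 31 and 32, and at 400 to 599 bp it was 33 and 37. Inside coding genes, it was close to the intergenic class at these widths, with 27, 30 and 33. At 600 bp and above, only 9 intergenic intervals were left, with a median of 35. There were 209 at coding gene ends with 48 and 91 inside coding genes with 38.

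Repeated lines were less frequent as well. Of the intergenic intervals, 34 (7.14%, 5.16% to 9.82%) stood on more than 1 line, compared with 18.4% of all intervals and 22.3% at coding gene ends. They were listed at most 2 times. In 28 of the 34, the lines carried different scores, and in 6 a single score. Of the 921 repeated intervals of the whole list, 505 carried different scores and 416 a single score.

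**Figure D2:**
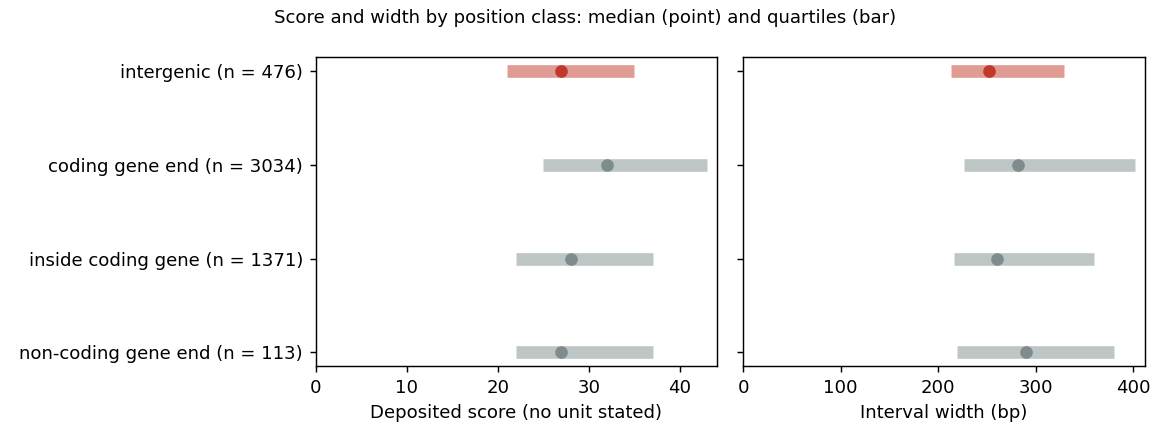
Score (left, no unit stated) and width in bp (right) of the intervals in each position class, with the median as a point and the quartiles as a bar. The intergenic class has a median score of 27 and a median width of 252 bp, and coding gene ends have 32 and 282 bp.

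High-scoring intergenic intervals were considered next. The first, at chr5:139517733-139518481, had 94 on 1 line and 58 on the other. This interval was 19th of all 4994 by score. It lay 8133 bp from UBE2D2, the gene of a ubiquitin-conjugating enzyme, on its start side, and a further interval was at a start of UBE2D2. Second was the interval in LOC105373289 shown above (84), which was 7283 bp from the far end of SNAP47, a SNARE family gene. It was followed by chr12:6278502-6279003 with 74, held by LOC105369625 and 31580 bp from PLEKHG6, a guanine nucleotide exchange factor gene.

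The score of 73 was reached by 3 intervals. One was at chr14:105480901-105481453, 1007 bp beyond the far end of CRIP2, a LIM domain gene, and therefore just outside the 1 kb limit. Another was at chr19:13167634-13167873, 12842 bp from the far end of IER2, an immediate early gene. The last was at chr2:44087165-44087412, 81587 bp from the start of PPM1B, a protein phosphatase gene whose start also had an interval.

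The following 4 were near TTLL1, REEP3, AMER3 and TP53TG3F. The interval at chr22:43094184-43094548 reached 72, at a distance of 4975 bp from the start of TTLL1, which encodes a tubulin polyglutamylase subunit. At chr10:63630275-63630668, the score was 69, with REEP3, a gene for shaping of the endoplasmic reticulum, 5343 bp away. At chr2:130797816-130798164 it was 67, with AMER3 at 29856 bp. At chr16:33491547-33491867 it was 65, a score shared with an interval near MKNK2 described below, with TP53TG3F at 29458 bp and a pseudogene closer by, at 4239 bp. For TTLL1 and REEP3, too, a pseudogene was closer than the coding gene, at 1787 and 3839 bp. The same held for PLEKHG6 (8310 bp) and IER2 (8879 bp). A long non-coding gene was closer than UBE2D2 (5173 bp), SNAP47 (1697 bp), PPM1B (20049 bp) and AMER3 (12282 bp). CRIP2 was itself the nearest annotated gene of its interval.

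The 5 widest intervals had scores from 19 to 44, on both sides of the class median of 27. The widest, of 1895 bp, had a score of 19 and lay in the transcribed pseudogene FABP5P3, 3312 bp from the start of KMT2C, a histone methyltransferase gene (chr7:152438368-152440262). The next was of 1041 bp with a score of 34, 28451 bp from the transcribed pseudogene MST1L (chr1:16792411-16793451). An interval of 878 bp with a score of 22 lay in WAPL-DT, 1441 bp from the start of WAPL, which releases cohesin (chr10:86522795-86523672). The remaining 2 were of 837 bp with a score of 44 beside LOC124903442 on chromosome 15 and of 776 bp with a score of 35 near GLDC, the glycine decarboxylase gene (chr9:6680982-6681757). The interval near GLDC was 35640 bp from its start, and that near MST1L was 119419 bp from the nearest coding gene.

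Farthest from genes were 3 intervals on chromosome 12, in a stretch of over 2 Mb without annotated genes. They were at chr12:34605688-34605888 (score 27), chr12:34374535-34374738 (37) and chr12:34373200-34373399 (25), with the nearest gene end, that of the pseudogene AK6P1, 355523, 124371 and 123034 bp away. An interval at chr21:7956082-7956343 (score 15) was 99205 bp from LOC105379505, and one at chr16:52754966-52755344 (score 18) was 97835 bp from LOC146253. All others were closer. The read mapping behind these intervals was not examined.

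At the 1 kb limit, the 3 intervals just inside the class were 1005 bp from GPR137B (score 25), 1007 bp from CRIP2 (73) and 1010 bp from SLC67A1 (17). The 3 just outside it were 994 bp from LOC124905040 (33), 988 bp from TRIM26 (35) and 987 bp from TRAF3 (35).

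Intergenic intervals occurred in groups at some loci. Another interval of any class was within 10 kb of 201 of the 476 (42.2%, 37.9% to 46.7%), compared with 39% of all intervals, 35.2% at coding gene ends and 46.8% inside coding genes. Among intergenic intervals alone, 340 had no other within 10 kb, 64 formed 32 pairs, and 72 formed 18 groups of 3 or more. Pairs and groups were not counted in the other classes, so these counts have no background and do not set the class apart. The 72 had a median score of 27 (quartiles 23.5 and 34), the same median as the whole class, and a median of 23 coding genes within 500 kb to either side.

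The group with the most intervals was on chromosome 14, 21462 to 26776 bp beyond the start of GPR132, a G protein-coupled receptor gene. It had 7 intervals within 5.61 kb, with scores of 29, 21, 34, 14, 22, 28 and 36 from low to high coordinate. Every gap between these neighbours was under 1 kb, so all 7 would join into a single interval if such gaps were merged. Whether the intervals of this or the other groups are separate sites or split calls was not tested. The nearest annotated gene of all 7 was LINC02298, a long non-coding gene, at 1941 to 7255 bp. Between MKNK2, which encodes a kinase of the translation factor eIF4E, and MOB3A on chromosome 19, 6 intervals in 5.95 kb had scores of 65, 27, 50, 26, 39 and 51. This was the highest median (44.5) of the 18 groups. Next came KRT8, a keratin of simple epithelia and hepatocytes. On chromosome 12, 5 intervals in 6.14 kb lay 16913 to 22747 bp beyond its far end, with scores of 40, 34, 29, 56 and 45. Upstream of PIM3, a serine/threonine kinase gene on chromosome 22, 5 intervals in 5.22 kb had scores of 25, 31, 43, 25 and 17. These 4 groups were all within 30 kb of a coding gene end.

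Groups of 4 were found at CRIP2 and CRIP1 (scores 17 to 73), at CDKN1C, a cyclin-dependent kinase inhibitor gene, and SLC67A1 (17 to 29), at H6PD, a pentose phosphate enzyme gene of the endoplasmic reticulum, and SPSB1 (27 to 33), and at KRT80, another keratin gene (13 to 30). Further groups of 4 were beside the start of LAMA5, a laminin chain gene (21 to 29), beside LOC124903442 (25 to 46), and between RBM5, an RNA-binding protein gene, and LOC124909484 (17 to 27). Groups of 3 were near CRABP2, a retinoic acid-binding protein gene (15 to 33), DAND5 and NFIX, the latter a nuclear factor I gene (13 to 29), DUSP8, a MAP kinase phosphatase gene (25 to 39), and IER2 (33 to 73). The others were near MYL3 (19 to 37), RREB1, a zinc finger factor gene (22 to 25), and WNT7B, a Wnt ligand gene (21 to 55). The gaps between the 3 intervals at RREB1 were under 1 kb as well. At GPR132, the group had 1 interval of another class within 10 kb, which belonged to the class at other gene ends. None there was at an end or inside of a coding gene. By contrast, PIM3 had 2 intervals at coding gene ends within 10 kb, and LAMA5 had 1 at an end and 4 inside.

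**Figure D3:**
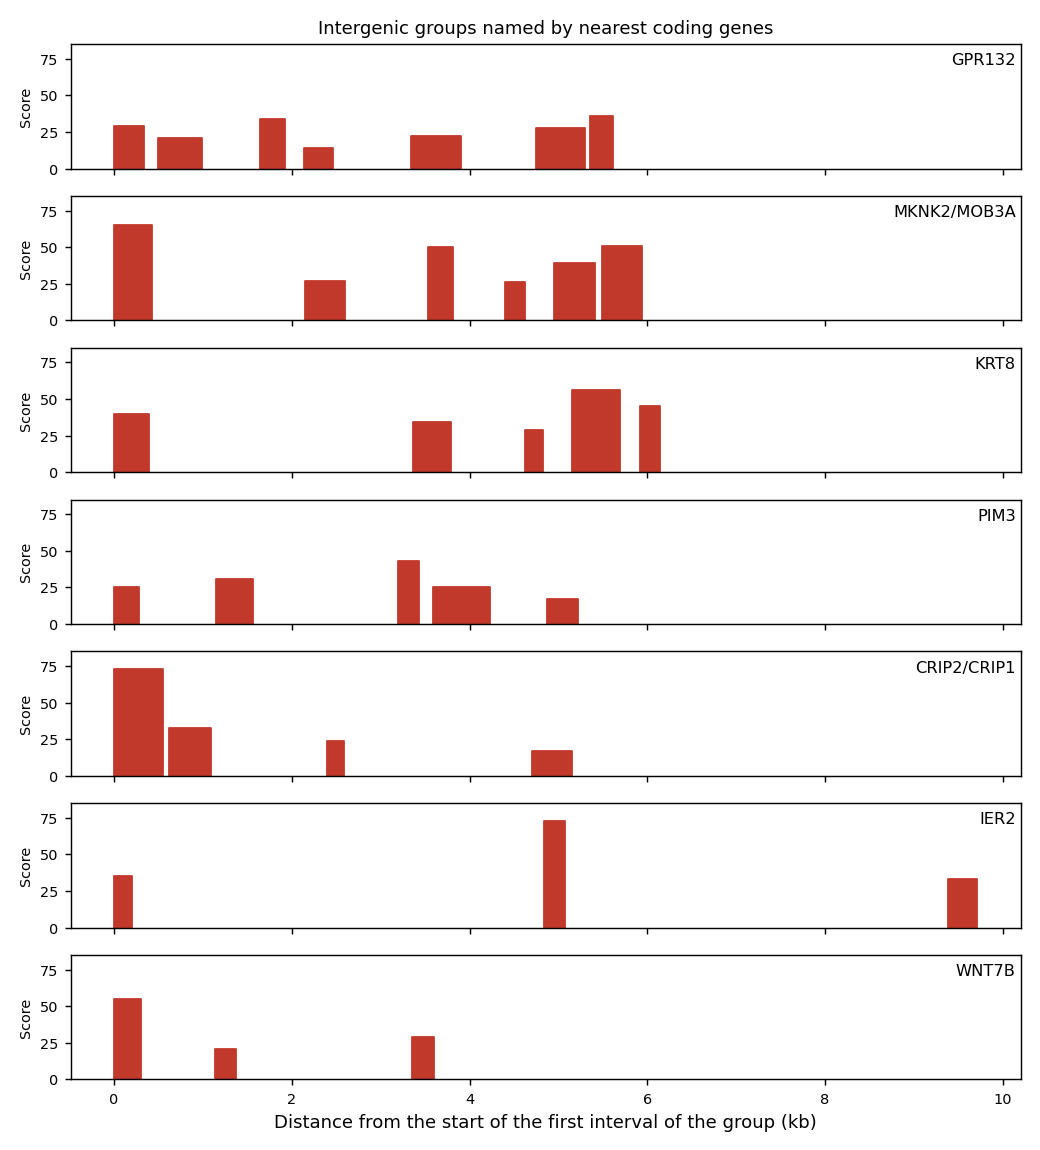
Intergenic groups with 5 or more intervals or with a score of at least 50, named by their nearest coding genes. Each block is an interval, drawn from its start to its end in kb from the first interval of the group, and its height is the deposited score. The 7 intervals at GPR132 stay at 36 or below, while the highest is 65 at MKNK2/MOB3A and 73 at CRIP2/CRIP1 and IER2.

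Nearest coding genes were next compared with gene lists. The 476 intervals had 379 distinct nearest coding genes, of which 316 had 1 interval, 44 had 2, 10 had 3 and 9 had 4 or more, up to 7 at GPR132. Within 100 kb, 362 of 19122 coding genes (1.89%) were the nearest gene of an intergenic interval. Of 56 genes for growth control and transcription factors known for distal regulation, 10 were (17.9%, 10% to 29.8%). These genes are nearest to 0.745% of intergenic bases within 100 kb of a coding gene and had 11 of the 457 intervals there (2.41%). The list was not tested. Its genes were chosen from general knowledge, but with earlier results of these data known, so the list is not independent of these data.

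Several of its members are immediate early or inhibitory transcription factor genes. The interval 1581 bp from the start of FOS, an AP-1 subunit, had a score of 48 (chr14:75277045-75277450). The one 1186 bp from the start of EGR1 had 21 (chr5:138464148-138464439). Both genes also had an interval at the start itself. HES1, a Notch target, had an interval of score 42 at 1142 bp from its start (chr3:194134907-194135106) and none at the start. ID1 had 2, with scores of 42 and 27, at 11610 and 9020 bp from the start, and ID2 had 1 with a score of 17 at 2940 bp. SOX4 had an interval of score 25 at 5316 bp from the start, and SMAD3, a mediator of TGF-beta signalling, one of score 30 at 47442 bp.

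Cell cycle and telomerase genes complete the list. The interval of CCND2 (cyclin D2) had a score of 56 and was 46415 bp away (chr12:4227236-4227458), that of CCND1 (cyclin D1) had 14 at 4369 bp, and that of TERT, the telomerase catalytic subunit, had 41 at 3341 bp from the far end (chr5:1249727-1249926).

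Of 43 hepatocyte genes, 2 (4.65%, 1.28% to 15.5%) were nearest to an intergenic interval. CYP1A2, a drug-metabolising P450 enzyme, had 2 beyond its far end, at 6142 bp (score 37) and 7171 bp (18). ASS1, of the urea cycle, had 1 at 35792 bp (31). None of the 14 genes for RFX factors and partners, of the 45 glycolysis genes, of the 52 ciliary genes or of the 23 pancreatic islet genes was nearest to an intergenic interval within 100 kb. The Wilson intervals of these zeros reach 21.5%, 7.87%, 6.88% and 14.3%, all above the 1.89% of all coding genes. A lower or a like share could therefore not be told from these counts.

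Finally, chromosomes were compared. Intergenic intervals were found on every chromosome from 1 to 22 except 13. Relative to intergenic sequence, they were densest on chromosome 19, with 29 intervals and 15.0 per 10 Mb, followed by chromosome 22 with 19 (11.5 per 10 Mb), chromosome 17 with 28 (9.14) and chromosome 20 with 28 (8.91). Chromosomes 4, 18 and 8 had 2, 1 and 6 intervals (0.178, 0.233 and 0.762 per 10 Mb), and chromosome 13 had none among 20 intervals, a share of up to 16.1%. The list as a whole was likewise densest on chromosome 19 (49.4 per 10 Mb of all bases) and sparsest on chromosomes 13 (2.07) and 4 (3.03). As a share of the intervals of a chromosome, the intergenic class ranged up to 21.6% (14.3% to 31.3%) on chromosome 22 and 15.5% (11.5% to 20.7%) on chromosome 6, and was 3.92% (1.81% to 8.29%) on chromosome 8. The copy number of these chromosomes in MHCC-97H cells was not analysed here.

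**Figure D4:**
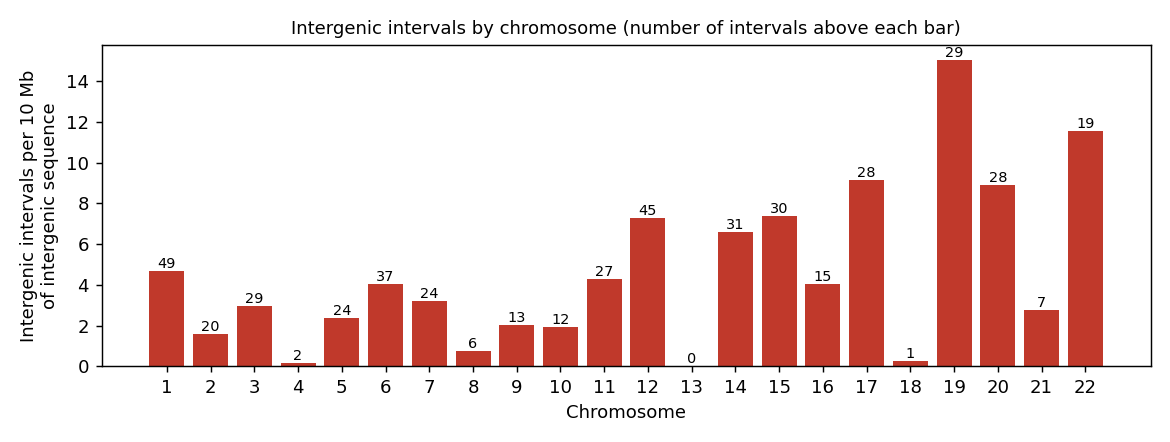
Intergenic intervals per 10 Mb of intergenic sequence on each of chromosomes 1 to 22, with the number of intervals above each bar. Chromosome 19 has the tallest bar (15.0 per 10 Mb), chromosomes 4 and 18 are near 0, and chromosome 13 has no intergenic interval.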

How the data were processed

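ChIP-seq of HA-RFX6 was performed by the authors, and peaks were called with MACS2 2.1.0.2 at a stated q-value threshold of 0.01. The deposited file gives a chromosome, start, end, name and whole-number score per line. What the score stands for, the aligner and the use of the input are not given in the sources used here. The labels name GRCh37, and RefSeq GRCh38.p14 was used because gene ends fitted it.

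Of 6214 lines, 1 with digit separators was mended. Identical intervals were collapsed to 5022, keeping the highest score. The 25 on chromosome X and 3 mitochondrial ones were left out. Coordinates are 1-based. The gene table held 59675 genes (20033 coding). A further 4 were listed without coordinates, and 1 interval at the start of such a gene was kept out of the intergenic class. Strand, from RefSeq promoter windows (250 bases before to 50 after a start), was known for 79.1% of coding genes.

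Members and lists were chosen with earlier results of these data known. Named were the 10 intergenic intervals with the highest score (a tie in the last place going to the first by position), the 5 widest, the 5 farthest from gene ends, groups of 3 or more with gaps under 10 kb, 3 on either side of the limit, and listed genes nearest to an interval within 100 kb. Classing was checked on 3000 simulated midpoints, all of which were classed as made. Python 3.11.15, numpy 2.4.6, pandas 2.3.3, scipy 1.17.1 and matplotlib 3.10.9 were used, with Wilson intervals at 95%.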

Additional observations from a re-analysis of the deposited data

How the results depend on the processing

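In 47 of 61 recalculations, values stayed within the counting interval of the main value (for the number of intervals, within 1.5 times). Several settings keep nearly the same intervals, such as chromosome X included (478) or any base in place of the midpoint (456). The tally is therefore no measure of robustness. For scores of at least 30, the number of intergenic intervals fell from 476 to 193, their median score was 38, their median width 274 bp, the share on more than 1 line 9.84% and the share with another interval within 10 kb 29.5%. At 2 kb from gene ends, the median distance was 6581 bp. At 5 kb, the number was 251, the median distance 9326 bp and the share inside a non-coding gene 8.76%. With intervals closer than 1 kb merged, the number of intergenic intervals was 425. The share with another interval nearby was 33.0% within 5 kb and 68.1% within 50 kb. Settings added after the data were seen were a score of at least 20 (median score 30) and the first 4000 distinct intervals of the list (247 intergenic, 49.4% with another interval within 10 kb). Thresholds on score or distance shift these values by construction. No paired analysis was possible because there is a single peak list, and for the same reason no replicate could be left out. Motifs and base composition of whole intervals, which need a genome, were not run. As read depth is unknown, a locus without an interval cannot be told from one with too few reads.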

Other observations

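The intergenic intervals were not spread evenly over the deposited list. They were 6.63%, 6.21%, 4.92% and 7.07% of the distinct intervals in the first 4 runs of 1000, and 229 of 1015 (22.6%, 20.1% to 25.2%) in the rest. Their median score was 27 in this last part and 27 to 28 in the others. The nearest coding gene end was 17239 bp away in the last part and 5841 to 7023 bp in the others. Over the first 4000 intervals, the median score was 27 in the intergenic class (247 intervals) and 32 at coding gene ends, the same as in the whole list. How the list was ordered is not stated and was not tested.

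The keratin genes on chromosome 12, a locus chosen after its values were seen, had 2 of the groups described above, at KRT8 and KRT80. Of 27 keratin genes there, 5 were nearest to 14 intergenic intervals, while 1.89% of all coding genes were nearest to any. KRT8 had 5 with scores from 29 to 56, KRT80 had 4 (13 to 30), KRT7 had 2 (25 and 42), KRT18 had 2 (27 and 28) and KRT5 had 1 (17). Between the first and the last base of the 27 genes, 12 of the 20 intervals were intergenic, against 9.53% of the whole list. The groups at KRT8 and KRT80 hold 5 and 4 of these 12, so a high share follows from the choice of the locus. The share of intergenic bases in this stretch was not worked out. As background, KRT8 and KRT18 encode the keratin pair of hepatocytes, and KRT7 is a keratin of bile duct cells. No liver cell type is given here for KRT80 or KRT5, so the locus is not described as a liver one. The intervals were 16913 to 22747 bp from KRT8 and 17220 to 17686 bp from KRT18. Of the 43 hepatocyte genes above, 2 were nearest to an intergenic interval within 100 kb.

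Beside stretches of over 2 Mb without annotated genes, or within them, there were 10 intergenic intervals within 1 Mb. They were on chromosomes 12, 15 and 17, with scores from 17 to 46, and 4 of them formed the group beside LOC124903442. The share of all intervals or of bases in these places was not worked out, so the count has no background.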
